A study of Mus musculus with 2 samples.

Results

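Open chromatin at 10 genes of the Notch pathway was examined by ATAC-seq, in which a transposase cuts into accessible DNA and tags it for sequencing, in basal cells of mouse skin epidermis. The genes were the receptors Notch1, Notch2 and Notch3, the ligands Jag1, Jag2 and Dll1, the DNA-binding factor Rbpj and the effectors Hes1, Hey1 and Heyl. A peak was taken as belonging to a gene when it overlapped it, or when it lay within 50 kb and no other protein-coding gene was nearer. This gave 79 of the 84594 distinct peaks, and 75 of the 79 passed a filter on low signal, set at the 10th percentile of the mean of both libraries (14 normalized reads). There was 1 library from epidermis with ablation of the basal lineage and 1 library from control epidermis, whose genotype is labelled WT. Each library came from 50000 sorted cells with high α6 integrin that lacked CD34 and Lrig1 and were positive for the YFP, GFP and RFP reporters of K14 lineage tracing. The sources used here do not give the agent and time of the ablation, the promoter behind it or the age of the mice. Since each group is a single library, the spread between animals is unknown. No difference was tested, and intervals are 95% intervals for counting error only.

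Notch receptors sit in the cell membrane and are cut when a ligand of the Jagged or Delta type on a neighbouring cell binds them. The freed intracellular part joins RBPJ on DNA and switches on genes of the Hes and Hey families, which encode repressors of transcription. In the epidermis the pathway is known for moving basal cells towards spinous differentiation.

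The peaks are compared in normalized reads, which are the reads in each peak after division by a factor of its library. Reads in nuclear peaks came to 12463908 in ablation and 17056996 in control, and the mitochondrial genome took a further 31.2% of reads in peaks in ablation and 7.31% in control. The basal keratinocyte label was checked against 7 markers, and all 7 had tested peaks, with summed signals from 406 to 2932 normalized reads in ablation and from 363 to 3144 in control. The suprabasal markers also had peaks, 6 of 6, with sums from 176 to 3735 normalized reads in ablation and from 216 to 3925 in control. All 6 were lower in ablation as deposited, where 61.6% of all genes with a tested peak were. With division by nuclear reads or with a loess-centred ratio 4 of 6 were lower, where 45.7% and 46.9% of all genes were. Of the 7 basal markers, 3 were higher and 4 lower as deposited. Of the 4 melanocyte markers 3 had a tested peak, and all 3 were lower in ablation as deposited and 2 of 3 with a loess-centred ratio; the 4 sums ran from 0 to 1481 normalized reads in ablation and from 0 to 1648 in control, with Tyr having no tested peak. Of the 4 Langerhans and myeloid markers 3 had a tested peak, and all 3 were higher in ablation as deposited and 1 of 3 with the table total. Their sums ran from 0 to 73.5 in ablation and from 0 to 67.7 in control, with Itgax having no tested peak. Among the T cell markers 2 of 4 had a tested peak, 1 higher and 1 lower, and among the fibroblast markers 3 of 4, 2 higher and 1 lower as deposited. The part of these cell types in the values of the Notch genes was not tested. In a bulk sample, a smaller share of cells with an open site and a less open site in every cell cannot be told apart. Every ratio is ablation over control, and log2 ratios were taken after adding 1 to both values.

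For 7 of the 10 genes a promoter window, from 250 bases before to 50 bases after an annotated start, was found in RefSeq (GRCm38.p6, the assembly behind mm10), with 9 windows in all because Dll1 and Rbpj have 2 starts each. All the bases of the windows of Notch1, Notch2, Jag1 and Jag2, of both windows of Rbpj and of 1 window of Dll1 lay under a peak. The windows of Notch3 and Dll1 below are shown because a peak edge falls in or beside them, and that of Rbpj because it holds the core sequence that RBPJ binds. In the Notch3 window, at chr17:32166841-32167140 on the minus strand, the capitals mark the 144 bases under its peak. In the first Rbpj window, at chr5:53590096-53590395 on the plus strand, they mark that core, TGGGAA, on either strand, where the opposite strand reads TTCCCA. The second Dll1 window, at chr17:15376883-15377182, is also on the minus strand. Its last printed base lies 15 bases beyond the edge of the peak at this gene, and capitals in the window mark an AP-1 motif, TGANTCA. Peak edges may be off by 1 base, since the table does not say whether its starts count from 0 or 1.
Notch3: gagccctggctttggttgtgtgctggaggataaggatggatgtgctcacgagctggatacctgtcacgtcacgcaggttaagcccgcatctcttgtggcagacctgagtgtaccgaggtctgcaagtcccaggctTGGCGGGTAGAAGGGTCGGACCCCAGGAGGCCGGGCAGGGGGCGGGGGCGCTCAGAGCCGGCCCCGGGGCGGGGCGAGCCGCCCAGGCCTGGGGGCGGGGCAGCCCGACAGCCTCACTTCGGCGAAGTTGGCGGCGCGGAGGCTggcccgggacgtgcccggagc
Rbpj: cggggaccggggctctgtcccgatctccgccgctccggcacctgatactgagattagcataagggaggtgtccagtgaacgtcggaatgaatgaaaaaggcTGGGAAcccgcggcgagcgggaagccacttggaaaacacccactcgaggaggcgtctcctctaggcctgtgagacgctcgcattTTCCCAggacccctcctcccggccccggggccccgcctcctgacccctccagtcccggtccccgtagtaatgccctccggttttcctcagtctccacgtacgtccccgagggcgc
Dll1: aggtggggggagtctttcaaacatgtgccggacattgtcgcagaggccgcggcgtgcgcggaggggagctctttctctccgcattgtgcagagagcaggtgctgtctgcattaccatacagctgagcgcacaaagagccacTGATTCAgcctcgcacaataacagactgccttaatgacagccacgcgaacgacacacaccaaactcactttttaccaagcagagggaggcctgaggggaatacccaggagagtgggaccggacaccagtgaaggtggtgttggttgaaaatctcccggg

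The core TGGGAA, searched on both strands, was present in 2 of the 9 windows, both of Rbpj, against 25.6% of all 32817 windows in the reference table. Since the 2 Rbpj windows overlap, they share 1 of these matches. The longer forms CGTGGGAA and TGTGGGAA, which contain the core, were in 0 of 9 windows, against 0.734% and 1.86% of all windows. The AP-1 motif was in 1 of the 9, against 7.81%. The share of G and C ran from 55.7% in Jag1 to 86.0% in Jag2, where the median window had 52.7%. Among all windows this put Jag1 at percentile 59.1, the second Dll1 window at 61.1 and Jag2 at 99.9. The Jag2 window held 63 CpG dinucleotides and the median window 7.

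At the level of whole genes, 9 of the 10 had a lower summed signal in ablation and Heyl had a higher one. The sizes were small. Sums of the 9 lay between 0.805-fold (Hey1) and 0.955-fold (Jag2), where the median log2 ratio over all 16268 genes with a tested peak was -0.07 and 61.6% of genes were below 0. Other scalings turned the sign of 3 of the 9, although the values stayed near 0. Jag2 and Notch3 were at 0.02 and 0.01 with division by nuclear reads, where 45.7% of all genes were below 0. With a loess-centred ratio Jag2 and Rbpj were at 0.07 and 0.08, where 46.9% of all genes were below 0. Notch3, Notch1, Dll1 and Jag1 then lay between 0.00 and -0.04, and Notch2, Hes1 and Hey1 at -0.10, -0.12 and -0.19. All 9 stayed below 0 with division by the table total, but so did 89.6% of all genes. As deposited, the counting interval lay wholly below 1 for 7 of the 9, the exceptions being Notch3 and Jag2, against 32.1% of all genes. It lay wholly above 1 for Heyl, against 14.2% of all genes. Such intervals narrow as reads rise, so all genes are not a like background. The summed signal of the 7 ran from the 54.8th percentile of genes (Hey1) to the 98.5th (Hes1). With division by nuclear reads their log2 ratios ran from -0.22 (Hey1) to 0.00 (Notch1), and intervals were not computed with that scaling. Per peak, 47 of the 75 tested peaks (62.7%) had a negative log2 ratio and 28 a positive one, where 51.3% of all tested peaks were negative. Their median was -0.10 against -0.01 over all 76147 tested peaks, and 66 of the 75 (88.0%) lay within 1.5-fold, as did 79.5% of all. A single peak, near Rbpj, was higher in ablation by at least 2-fold, against 4.48% of all tested peaks, and a single peak, near Jag2, was lower by at least 2-fold, against 1.88% of all. Counting intervals lay wholly above 1 for 8 of the 75 (15.0% of all tested peaks) and wholly below 1 for 20 (18.2% of all). All peaks are not a like background here either. In the top 2 deciles of signal 12 of 25 member peaks lay wholly below 1, and 6646 of all 15230. In the lower deciles these were 8 of 50 and 7177 of 60917.

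**Figure D1:**
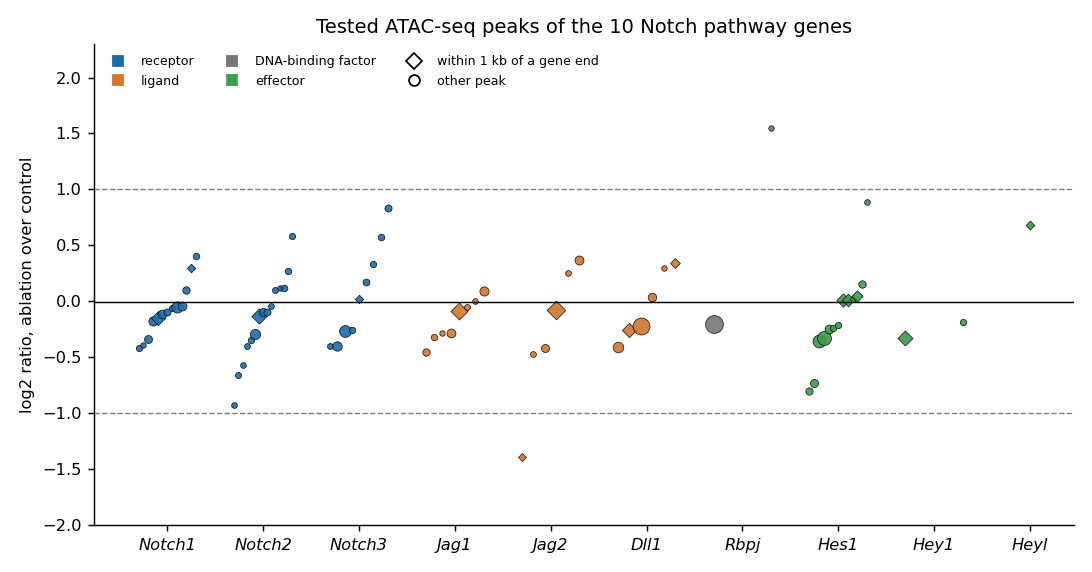
Log2 ratio of ablation to control (vertical axis) of each of the 75 tested peaks, by gene, ordered by value within a gene; larger symbols have more signal, diamonds lie within 1 kb of a gene end, dashed lines mark 2-fold and the solid line the median of all tested peaks. Only 1 peak of Rbpj lies above the upper dashed line and 1 of Jag2 below the lower one, and 47 of the 75 peaks are below 0.

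Among the receptors, Notch1 is the one best known for driving spinous differentiation. Its 13 tested peaks, of 14, summed to 2385 normalized reads in ablation and 2545 in control, a ratio of 0.937 (0.891 to 0.985). The strongest lay 3043 bp upstream of the gene, at chr2:26506865-26508021, and held 493 normalized reads in ablation and 512 in control. The peak over the start held 355 in ablation and 394 in control, 0.899-fold (0.788 to 1.02). Both libraries were thus close at the 2 sites, and the intervals include 1. The highest ratio was inside the gene at chr2:26497955-26498258, with 98.9 normalized reads in ablation and 74.8 in control, 1.32-fold (1.00 to 1.74). The lowest was 25499 bp upstream, with 60.8 in ablation and 81.9 in control, 0.742-fold (0.541 to 1.01).

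Notch2, a second receptor made in epidermis, was lowest on its upstream side. Its 15 tested peaks, of 17, summed to 1704 normalized reads in ablation and 1889.8 in control, 0.902-fold (0.850 to 0.957). The peak over the start, the strongest of the gene, held 441 in ablation and 484 in control, 0.911-fold (0.809 to 1.02). The 3 upstream peaks together held 132 in ablation and 197 in control, 0.668-fold (0.543 to 0.819), while the 11 tested peaks inside the gene held 1132 and 1209, 0.936-fold (0.870 to 1.01). The grouping by side, here and for the genes below, was made after the values were seen, and no difference between sides was tested. The lowest single peak was 6827 bp upstream at chr3:98006187-98006711, with 23.6 normalized reads in ablation and 45.9 in control, 0.514-fold (0.313 to 0.822), from 26 and 65 reads. The highest lay inside the gene at chr3:98056590-98057560, with 81.6 in ablation and 54.3 in control, 1.5-fold (1.10 to 2.06).

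Notch3, a receptor best known from the muscle cells of blood vessels and also made in keratinocytes, differed between its downstream flank and the rest of its locus. All 9 peaks were tested and summed to 1439 normalized reads in ablation and 1524 in control, 0.944-fold (0.884 to 1.01). The 4 peaks downstream of the gene, between 2312 and 20204 bp away, held 472 in ablation and 334 in control, 1.41-fold (1.25 to 1.60). The 3 peaks inside the gene held 642 in ablation and 779 in control, 0.824-fold (0.749 to 0.907). The upstream peak held 274 in ablation and 361 in control, 0.758-fold (0.655 to 0.876), so the downstream sum lay on the other side of 1 from both. The highest was the downstream peak nearest to the gene, at chr17:32117494-32118508, with 162 in ablation and 91.0 in control, 1.78-fold (1.41 to 2.25). The next protein-coding gene to it, Rrp1b, is 54629 bp away. The strongest peak, inside the gene at chr17:32161022-32162991, held 523 normalized reads in ablation and 631 in control, 0.830-fold (0.746 to 0.922). The short peak of 143 bp over the start, drawn in capitals in the Notch3 window, held 50.8 and 50.1, 1.01-fold (0.701 to 1.46). The sum for the gene is a balance of the 2 directions, at a log2 ratio of -0.08, and was -0.26 from the peaks that overlap the gene alone.

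**Figure D2:**
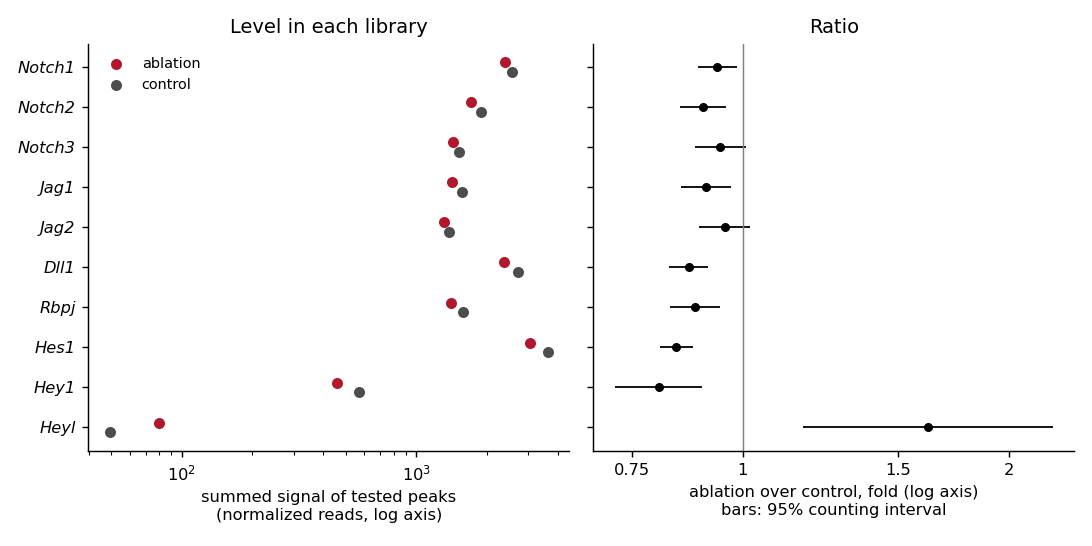
Left, summed signal of the tested peaks of each gene in normalized reads (log axis), with ablation as the upper red point and control as the lower grey point. Right, the ratio of ablation to control with its 95% counting interval (log axis); 9 genes lie below 1, of which Notch3, Jag2 and Rbpj change side with another scaling, and Heyl lies above, at 1.62.

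Of the ligands, Jag1, a Jagged-type ligand, had 8 tested peaks. They summed to 1425 normalized reads in ablation and 1567 in control, 0.910-fold (0.852 to 0.971). The peak over its start, the strongest, held 586 in ablation and 624 in control, 0.939-fold (0.847 to 1.04), and the highest ratio, 1.06-fold (0.916 to 1.23), was at a peak inside the gene with 306 in ablation and 288 in control. A group of 4 peaks between 32444 and 37583 bp upstream held 221 in ablation and 272 in control, 0.812-fold (0.689 to 0.956). Among them was the lowest of the gene, at chr2:137150841-137151398, with 122 in ablation and 168 in control, 0.729-fold (0.586 to 0.904).

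Jag2, a ligand made by basal keratinocytes, held the only member peak at least 2-fold lower in ablation. Its 6 peaks summed to 1311 normalized reads in ablation and 1372 in control, 0.955-fold (0.892 to 1.02). The 2-fold lower peak lay 531 bp downstream of the gene at chr12:112906916-112907272, with 16.3 in ablation and 44.5 in control, 0.367-fold (0.205 to 0.628), from 18 and 63 reads. All 4 downstream peaks held 256 in ablation and 348 in control, 0.735-fold (0.633 to 0.853). In the other direction, the peak inside the gene at chr12:112927006-112927955 held 315 in ablation and 243 in control, 1.29-fold (1.11 to 1.5). The adjoining peak over the start, the strongest, held 740 in ablation and 780 in control, 0.948-fold (0.865 to 1.04). The peaks of Jag2 thus lay on both sides of 1, with the peak inside the gene above it and the downstream sum below.

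Dll1, the Delta-type ligand of the set, had 2354 normalized reads in ablation and 2710 in control over 6 peaks, 0.869-fold (0.826 to 0.913). The log2 ratio of this sum was -0.20 as deposited and -0.02 with a loess-centred ratio. Its strongest peak was not at the gene but 39454 bp downstream, at chr17:15325892-15327900, and held 1229 in ablation and 1428 in control, 0.861-fold (0.803 to 0.923). The log2 ratio there was -0.22, where all tested peaks of the highest decile of signal had a median of -0.18. This peak made up 52.2% of the reads of the gene in ablation and 52.7% in control. The peak that covers the inner start held 359 in ablation and 431 in control, 0.833-fold (0.732 to 0.947). The lowest ratio was 3306 bp upstream at chr17:15380238-15381203, with 372 in ablation and 495 in control, 0.751-fold (0.663 to 0.849). The highest was 976 bp downstream, with 127 in ablation and 100.2 in control, 1.27-fold (0.996 to 1.61).

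Rbpj, the factor through which the receptors act on DNA, had only 2 peaks. The peak inside the gene at chr5:53588732-53590938, which covers both promoter windows, held 1369.6 normalized reads in ablation and 1575 in control, 0.870-fold (0.814 to 0.929). It was at the 99.9th percentile of signal among tested peaks. Its log2 ratio was -0.20, where all tested peaks of the highest decile of signal had a median of -0.18. The other peak lay 45993 bp upstream at chr5:53509510-53509786 and was the only member peak at least 2-fold higher in ablation. It held 30.8 normalized reads in ablation and 9.88 in control, 3.12-fold (1.63 to 6.30), from 34 and 14 reads. It was near the lower limit of the filter and near the 50 kb limit of assignment, and with the filter at the 25th percentile of signal no member peak was 2-fold higher.

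Hes1, a repressor switched on by Notch, had 13 tested peaks and the largest sum of the members. The sum was 3050 normalized reads in ablation and 3623 in control, 0.842-fold (0.806 to 0.880). The lower signal was away from the gene. The 3 peaks within 1 kb of the gene ends together were at 1.01-fold (0.926 to 1.11), and the other 10 at 0.795-fold (0.756 to 0.836). The difference between these groups was not tested. Over the lower-coordinate end of the gene the peak held 276 in ablation and 274 in control, 1.01-fold (0.864 to 1.17). The strongest peak was 40087 bp away at chr16:30024371-30025270, with 760 in ablation and 958 in control, 0.793-fold (0.727 to 0.865). The lowest ratio was 22045 bp away at chr16:30042681-30043312, with 102 in ablation and 177 in control, 0.574-fold (0.455 to 0.719). A neighbouring peak 17330 bp away, chosen after its values were seen, was also low, with 151 in ablation and 250 in control, 0.603-fold (0.498 to 0.727). On the opposite side, 22518 bp from the gene, was the highest, with 42.6 in ablation and 22.6 in control, 1.89-fold (1.18 to 3.06). The nearest other protein-coding gene to these peaks, Cpn2, is at least 165590 bp away.

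**Figure D3:**
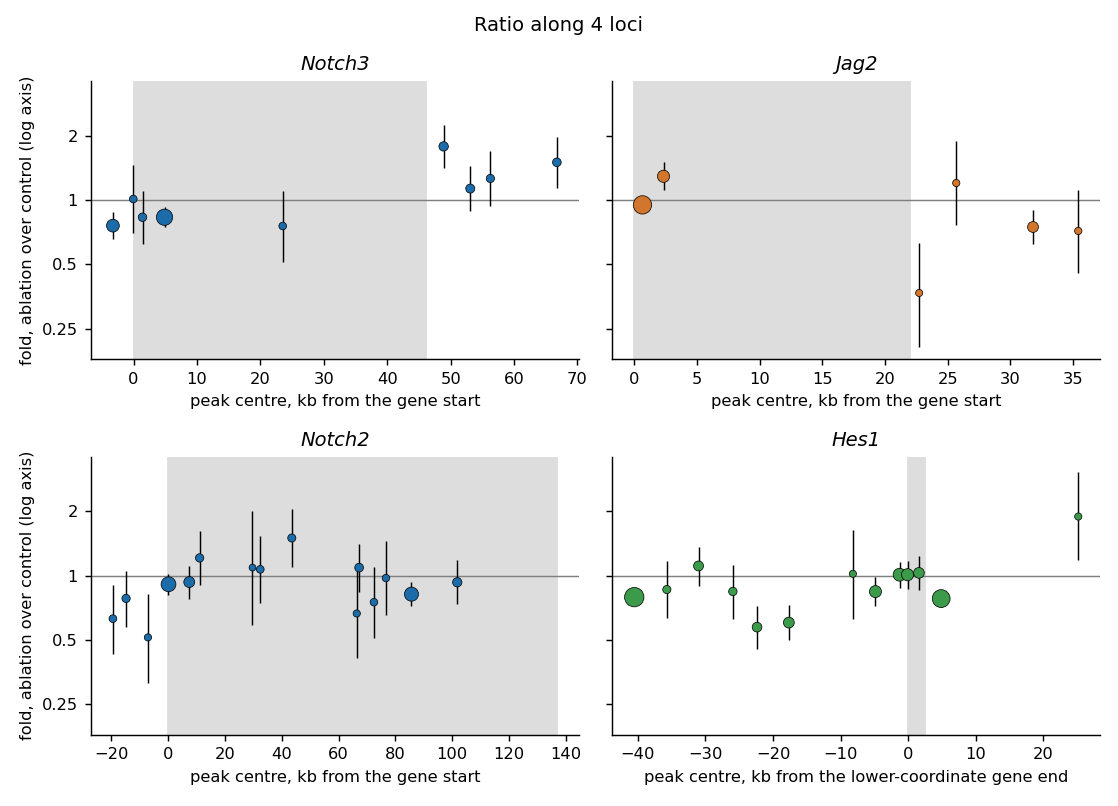
Ratio of ablation to control (log axis) of each tested peak of 4 genes against the distance of its centre from the gene start in kb, or from the lower-coordinate gene end for Hes1; grey bands are the genes, bars 95% counting intervals, and larger points have more signal. The 4 peaks downstream of Notch3 lie above 1, the peak next to the end of Jag2 is at 0.367, and the 3 upstream peaks of Notch2 lie below 1. Hes1 is at 1.01 over its gene end, with lower values at peak centres of -17651 and -22360 bp.

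Hey1, a repressor related to Hes1, had the lowest ratio of summed signal among the members, with 457 normalized reads in ablation and 568 in control, 0.805-fold (0.718 to 0.901). It lay at the 9.54th percentile of log2 ratios over all genes. Its strongest peak, over the higher-coordinate gene end at chr3:8666743-8667874, held 394 in ablation and 495 in control, 0.795-fold (0.703 to 0.897). This peak also overlaps a neighbouring gene listed as LOC115489673, so its signal cannot be given to Hey1 alone. The peak inside Hey1 held 63.5 in ablation and 72.7 in control, 0.874-fold (0.635 to 1.19).

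Heyl, another repressor of this family, was the only member with a higher sum in ablation, and it had the least signal. Its single tested peak, over the lower-coordinate gene end at chr4:123233064-123234086, held 79.8 normalized reads in ablation and 49.4 in control, 1.62-fold (1.17 to 2.24), from 88 and 70 reads. This gave a log2 ratio of 0.68, at the 96.7th percentile over all genes. The second peak, 508 bp from the gene, had 4 reads in ablation and 11 in control and did not pass the filter. Heyl is also known from cells of blood vessels. Of the 4 endothelial markers, 3 had a tested peak, 2 of them higher and 1 lower in ablation as deposited, and 3 higher with division by nuclear reads. Their sums ranged from 0 to 2531 normalized reads in ablation and from 0 to 2645 in control, with Cdh5 having no tested peak. Tie1 held 211 in ablation and 89.6 in control, and Kdr 41.7 and 29.6. Pecam1, the strongest of the list, was slightly lower, with 2531 in ablation and 2645 in control. The part of such cells in the Heyl value was not tested.

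The member peaks were also compared as a set with all tested peaks, by signal and by place. They were stronger than the average peak, with a median signal of 114 normalized reads against 66.1 over all tested peaks, and 25 of the 75 (33.3%) were in the top 2 deciles of signal. Strong peaks leaned lower in ablation in the whole table, with a median log2 ratio of -0.18 in the highest decile and 0.20 in the lowest. Set against the median of its own decile, 46 of the 75 member peaks lay below and 29 above, where 37981 of all 76147 lay below. In the top 2 deciles the member median was -0.18 and that of all peaks -0.15. The 14 peaks within 1 kb of a gene end had a median of -0.03, with 7 of 14 below 0, where all gene-end peaks had -0.07 and 59.9% below 0. The other 61 had a median of -0.18 with 40 below 0, where all such peaks had 0.01 and 49.2%. Summed, the members stood at 0.934-fold (0.898 to 0.971) at gene ends and at 0.882-fold (0.863 to 0.903) elsewhere. The peaks elsewhere are not all away from promoters. They include the strongest member peak, over both promoter windows of Rbpj, whose centre is 34056 bp from the outer gene start. They were also stronger than all such peaks, with a median signal of 91.6 against 53.8 and 27.9% against 12.6% in the top 2 deciles. By role, 24 of 37 receptor peaks, 13 of 20 ligand peaks, 1 of 2 Rbpj peaks and 9 of 16 effector peaks were below 0, where 51.3% of all tested peaks were.

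**Figure D4:**
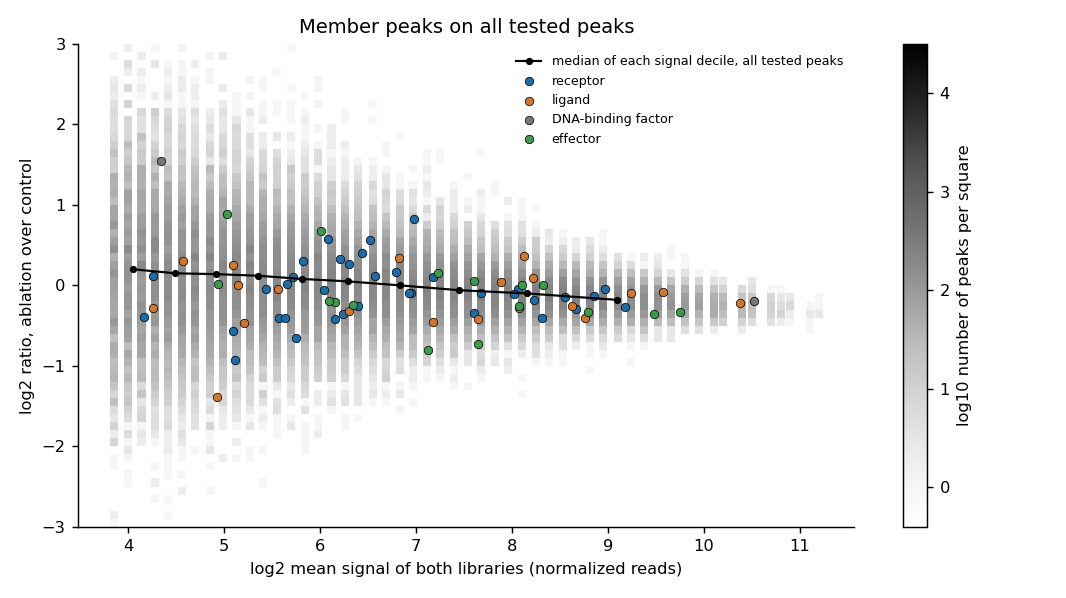
Log2 ratio of ablation to control (vertical axis) against log2 mean signal (horizontal axis) for the 75 member peaks, coloured by role, over the number of all tested peaks in grey; peaks beyond 3 on the vertical axis are not drawn. The black line gives the median of each decile of signal, from 0.20 in the lowest to -0.18 in the highest, and 46 of the member peaks lie below the median of their own decile.

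The deposited table consists of 3 runs of rows, each sorted by peak name, whose meaning is not stated. Of tested peaks first listed in run 1 90.8% had a positive log2 ratio and 31.2% were at least 2-fold higher in ablation, while of those first listed in run 2 18.4% were positive and 16.1% at least 2-fold lower. The members had 6 peaks in run 1, 5 in run 2 and 68 in run 3. The 2-fold higher peak of Rbpj was in run 1 and the 2-fold lower peak of Jag2 in run 2. Of the 68 in run 3 0 were past 2-fold in either direction, where 2.44% of tested peaks first listed there were 2-fold higher and 1.06% lower. In that run 24 member peaks had positive ratios and 44 negative ones, where 47.1% of all tested peaks first listed there were positive.

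Another 46 genes of the pathway, from ligand-processing enzymes to co-activators, all had a tested peak. Of these, 19 had a log2 ratio above 0 and 27 (58.7%) below, near the 61.6% below 0 of all genes, with a median of -0.03. This balance turned with the scaling, as did that of all genes. There were 28 above and 18 below with division by nuclear reads (45.7% of all genes below), 27 and 19 with a loess-centred ratio (46.9% of all genes below), and 4 and 42 with the table total (89.6% of all genes below). Among their 288 tested peaks, a ratio of 2 or more was found at 6 (2.08%, against 4.48% of all) and a ratio of 0.5 or less at 6 (2.08%, against 1.88%). The highest was Neurl1a, a ubiquitin ligase of the neuralized family, which acts on ligands in flies, with 815 normalized reads in ablation and 541 in control, 1.51-fold (1.37 to 1.66), and 3 of 9 peaks at least 2-fold higher. Next were Dtx1, a Deltex family ubiquitin ligase, at 1.47-fold (1.03 to 2.1), and Mfng, an enzyme that adds sugars to Notch receptors, at 1.45-fold (1.07 to 1.97). Poglut1, which also adds sugars to the receptors, was at 1.30-fold, and its interval spans 1 (0.991 to 1.70). The lowest was Aph1b, a subunit of the γ-secretase that cuts the receptors, with 1110.2 in ablation and 1408 in control, 0.789-fold (0.734 to 0.847). Then came Hey2, a repressor of the Hey family, at 0.815-fold (0.728 to 0.913), Adam17, a protease of the cell surface, at 0.824-fold (0.747 to 0.909), and Mib1, a ubiquitin ligase that prepares ligands for signalling, at 0.833-fold (0.751 to 0.924). Dtx1, Mfng, Poglut1, Aph1b, Hey2, Adam17 and Mib1 rest on 1 or 2 tested peaks each. Adam10, the protease that makes the first cut in a bound receptor, was at 0.873-fold (0.806 to 0.946).

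**Figure D5:**
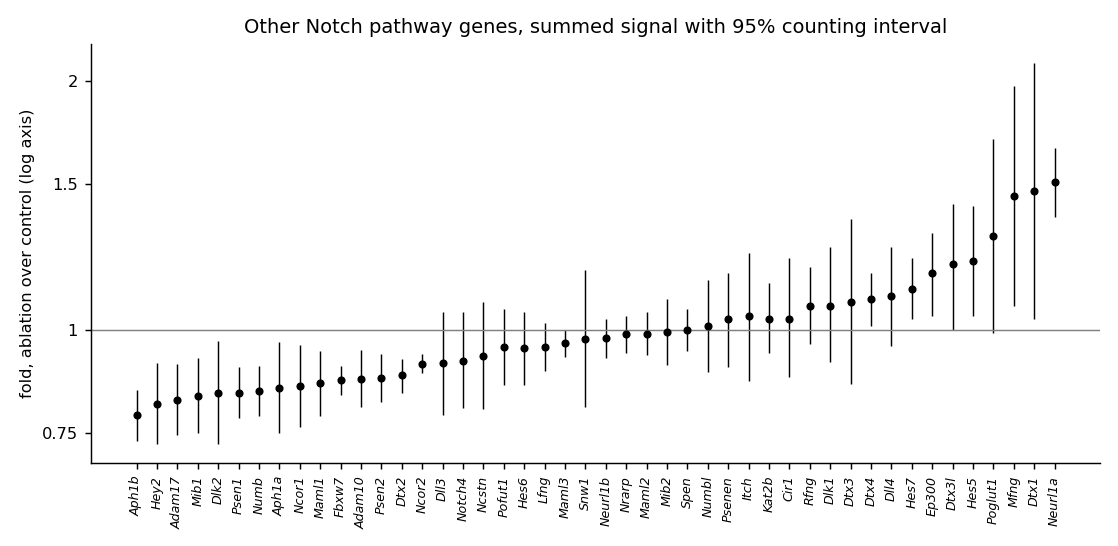
Ratio of ablation to control (vertical log axis) of the summed signal of 46 other Notch pathway genes, ordered from lowest to highest, with 95% counting intervals as bars. Values run from 0.789 for Aph1b to 1.51 for Neurl1a, and 27 of the 46 have a log2 ratio below 0, which were 18 with division by nuclear reads and 19 with a loess-centred ratio.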

How the data were processed

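ATAC-seq was measured in 1 ablation and 1 control library. Per the submitters' processing notes, reads were handled with HTSeq, MACS2 2.1.0.20151222, Picard, Bowtie2 2.3.4.2 and Trimmomatic on mm10, with no role or setting given for any of them. The single table deposited by the authors holds a normalized signal for every peak in both libraries. Its columns were matched by name, although the control column carries a 2 that its title lacks and the other says Exp, taken as ablation. Every value was a whole multiple of 1 step per library (0.907 in ablation, 0.706 in control, within 0.1 of a read), so whole reads were recovered for intervals. Such reads total 18127119 in ablation and 18402788 in control, and the limit that a count of 0 allows (3 reads) is 2.72 normalized reads in ablation and 2.12 in control. Of 116411 rows, repeats of a peak were merged, and 3 mitochondrial peaks were left out.

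Log2 ratios were taken after adding a pseudocount of 1, for peaks with a mean signal at or above the 10th percentile (14.0 normalized reads). Folds were computed from reads without a pseudocount, with exact Clopper-Pearson bounds. PCR copies are not independent molecules, so bounds cover counting error only. RefSeq positions of genes (GRCm38.p6), without exons, were used. A gene's value is the ratio of its summed signal over tested peaks. Named peaks are the strongest, highest, lowest, 2-fold changed and start peaks of each gene, and the 4 highest and 4 lowest other pathway genes; Adam10 and the peak sums by side were picked afterwards. Members and lists were chosen with earlier results of these data known. Alternatives covered pseudocount, filter, scaling, threshold, assignment, repeats and gene value; those for marker and other pathway lists were chosen after seeing the data. The steps were tested on simulated reads that held counting error alone, and recovery was required only for changes larger than the 2-fold threshold. Software was matplotlib 3.10.9, statsmodels 0.14.6, scipy 1.17.1, pandas 2.3.3 and numpy 2.4.6 under Python 3.11.15.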

Additional observations from a re-analysis of the deposited data

Results flagged for a closer look

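The mitochondrial genome, which the comparison of Notch genes leaves out, took 31.2% (31.2 to 31.3) of the reads in peaks in the ablation library and 7.31% (7.30 to 7.32) in the control library, so that a set of peaks outside the comparison stood above its level in control. With 1 library per group, whether this share goes with ablation or with the preparation of the libraries cannot be told apart.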

How the results depend on the processing

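The median log2 ratio over member peaks, -0.10, was -0.01 with nuclear reads as scaling and -0.44 with the table total, mitochondrial reads included, which put the median of all tested peaks at 0.08 and -0.35. It stayed between -0.10 and -0.09 under the other alternatives. The count of member genes below 0, 9 of 10, ranged from 6 (of 9 genes with a value, gene-end peaks alone) to 9. The 1 peak at least 2-fold higher (against 4.48% of all tested peaks) became 0 with the filter at the 25th percentile (against 2.81%). It became 0 with peaks overlapping the gene alone, 0 within 5 kb alone and 4 with a 1.5-fold threshold. The 1 peak at least 2-fold lower (against 1.88% of all) became 4 with the table total (against 5.74%). It became 2 with the loess-centred ratio (against 2.95%) and 2 with repeated rows kept (against 1.83%). With overlapping peaks alone it became 0, and with a 1.5-fold threshold 5. Of all tested peaks 79.5% lay within 1.5-fold, and of member peaks 88.0%. Notch3 was at 0.04 with repeated rows kept and 0.02 as the median peak, Rbpj at 0.67 as the median of 2 peaks, and Hes1 at 0.03 with overlapping peaks alone. The sign of Heyl was positive in all 13 settings run. Depth limits peaks of few reads, where intervals span more than 2-fold. No paired analysis was possible because each group has 1 library.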
